A study of Mus musculus with 8 samples.

Results

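Metabotropic glutamate receptors and the GABA-B receptor belong to the G protein-coupled receptors that sense the main excitatory and inhibitory transmitters of the cortex. The genes described are Grm2, Grm3, Grm4, Grm5, Grm7, Grm8, Gabbr1 and Gabbr2, chosen by gene name from a count table of mouse cortical interneurons. They are 8 of the 23335 gene names in the table, of which 16531 had a count in any cell. All 8 had at least 1 count, and each was present as a single transcript row.

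A functional GABA-B receptor is a pair of different subunits, in which Gabbr1 binds GABA and Gabbr2 carries the receptor to the cell surface and couples it to the G protein. The metabotropic glutamate receptors form 3 groups. Group I, to which Grm5 belongs, acts through Gq and phospholipase C, while group II (Grm2 and Grm3) and group III (Grm4, Grm7 and Grm8) act through Gi/o proteins and lower cyclic AMP. In cortex these receptors are known for tuning transmitter release at axon terminals and the excitability of dendrites, and GABA-B receptors also open inwardly rectifying potassium channels.

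The study profiled single fluorescent neurons of mouse frontal cortex, picked by hand after the tissue was dissociated, by linear amplification of polyadenylated RNA carrying random tags. A distinct tag on a gene counts as 1 molecule (UMI). Chandelier cells (ChC) came from Nkx2.1-CreER; Ai14 females in which the reporter was induced with tamoxifen late in gestation, and parvalbumin cells (Pv) from Pv-ires-Cre; Ai14 females. Each of the 8 library batches was planned with 16 cells of a single animal, and cells ChC-49 and Pv-27 failed, which left 63 cells per group. ChC batches 1 and 2 were from animal 1 at postnatal day 31, and ChC batches 3 and 4 from animal 2 at postnatal day 32. Pv batches 5 and 6 were from animal 3 at postnatal day 29, and Pv batches 7 and 8 from animal 4 at postnatal day 35.

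Both groups carry the Cre-dependent red fluorescent reporter Ai14 and are labelled as wild type. The first driver labels cells in which Nkx2.1 was active when tamoxifen was given, and the second labels cells by parvalbumin expression and not by their shape. The labels of the Pv samples repeat the tamoxifen text, although Pv-ires-Cre does not need the drug. Cell type, mouse line and sequencing flow cell all change together between the groups, and their effects cannot be separated. On each flow cell the first animal was run in lane 1 and the other in lane 2, so animal and lane cannot be separated within a group. The 2 animals per group are the biological replicates, and the 4 batches per group share animals in pairs.

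With the transcript rows of each gene name summed, the ChC batches held 527743, 657957, 2898413 and 1307666 UMI. The Pv batches held 456458, 501563, 370238 and 921212 UMI. Levels are given as CPM, the UMI of a gene scaled to a common total for every batch after TMM normalization, with the SD over the 4 batches of a group. No pair of cells had identical counts. Intervals given for single batches cover counting error only.

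The libraries of a group were not alike. In batch 6, whose animal is labelled female, Xist had 0 UMI, where the depth allows up to 6.94 CPM, while the other 7 batches held between 111 and 864 CPM. Batch 5, labelled as the same animal, held 325 CPM, so the label that joins batches 5 and 6 as animal 3 is in doubt, and every value per animal rests on it. Batches 2 and 6 also had the lowest Gabbr2 of their groups. Neither level was marked by the rule for outlying values used below, which could not mark a low level beside values this spread out. Both batches were picked out after the values were seen, and the Gabbr2 means are given with and without them.

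The labels were checked against marker genes. The 6 genes of the GABAergic list summed to between 2453 CPM (batch 7) and 6130.2 CPM (batch 5), led by Slc32a1, where the leading gene of a list is the 1 with the highest CPM over all batches. The 5 genes of the list for interneurons of the medial ganglionic eminence summed to between 693 CPM (batch 4) and 4728 CPM (batch 6). Satb1 led this list through batch 6, with 3490.1 CPM there and 0 CPM in batch 1, and without batch 6 the highest sum was 3777 CPM (batch 5). Pvalb, the calcium buffer that drives the Pv line, was at 153, 191, 97.5 and 81.6 CPM in ChC batches and at 1623, 761, 550.2 and 1100 CPM in Pv batches. Lhx6, a transcription factor of this lineage, was at 507 ± 340.3 CPM (SD, n = 4) in ChC and at 192 ± 139.7 CPM (SD, n = 4) in Pv. Of other cell types, Vip, Neurod6, Tbr1, Emx1, Slc17a6, Gfap, Olig2, Cspg4, C1qa and Cldn5 had 0 UMI in every batch.

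Other marker lists were also detected, at levels that differed between batches. In batch 4 the lists of other interneurons (1177 CPM), astrocytes (1087 CPM) and pyramidal neurons (911 CPM) summed to more than the lineage list (693 CPM). The 8 pyramidal neuron genes, led by Camk2a, summed to between 48.7 CPM (batch 1) and 1469 CPM (batch 7), and the 7 astrocyte genes, led by Slc1a2, to between 57.9 CPM (batch 6) and 1370.3 CPM (batch 7). The 5 genes of other interneurons, led by Cck, summed to between 60.3 CPM (batch 1) and 1177 CPM (batch 4), and the 6 oligodendrocyte genes, led by Mbp, to between 10.5 CPM (batch 2) and 280.04 CPM (batch 6), where Mbp had 0 UMI and Cnp held 278 CPM. Oligodendrocyte precursor genes (4, led by Pdgfra) and vascular genes (5, led by Rgs5) reached at most 55.5 and 125.8 CPM, both in batch 8. The 5 microglia genes, led by P2ry12, reached at most 82.5 CPM, in batch 4.

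Between ChC and Pv, no receptor gene passed the test. UMI were summed per animal and fitted with edgeR's quasi-likelihood test on 9829 genes, and p was adjusted after Benjamini-Hochberg and held to a threshold of 0.05. Of the 8 receptors, 6 had enough counts to be tested and 0 were called, beside 0% of all genes tested. At an unadjusted p under the threshold there were 616 genes (6.27%), of which 1 was a receptor (Gabbr2), and DESeq2 called 151 of the 9829 genes but 0 receptors. The median log2 fold change, ChC over Pv, was 0.18 over the 6 receptors tested and 0.04 over all genes tested. The median size of the log2 fold change was 0.70 over these receptors and 0.88 over all genes tested, and 4 receptors were above 0 and 2 below.

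Levels were also compared batch by batch. Of the 6 receptors that pass the filter on low counts over batches, 0 had all ChC batches above or all below the Pv batches, against 4.66% of the 6481 genes that pass it (2.89% with ChC above and 1.77% with ChC below). Without batch 2 this held for 2 receptors, Gabbr2 with ChC above (as for 4.61% of all genes) and Grm5 with ChC below (as for 3.09%). With any other batch left out it held for 0 receptors. Batch 2 had the lowest Gabbr2 and the highest Grm5 of the ChC batches, so both results rest on the choice of that batch, and no conclusion is drawn from them.

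Gabbr1, the GABA-binding subunit, had the highest mean CPM per kb of exon of the 8 receptors in both groups. It was at 2692, 2219, 727 and 1149 CPM in ChC batches 1 to 4 and at 1482, 1636, 701 and 1609 CPM in Pv batches 5 to 8. Both batches of animal 1 were the highest, batches 3 and 7 were the lowest, and the groups overlapped. The means were 1697 ± 914 CPM (SD, n = 4) in ChC and 1357 ± 443 CPM (SD, n = 4) in Pv. On a log2 scale the fold change (ChC/Pv) was 0.17 (standard error 0.56, adjusted p = 0.999, edgeR's quasi-likelihood test, adjusted after Benjamini-Hochberg), and it turned to -0.72 without animal 1.

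Gabbr2, the subunit that couples the receptor to its G protein, varied far more between libraries. ChC batches 1 to 4 held 527, 12.2, 362 and 166 CPM, and Pv batches 5 to 8 held 106, 4.63, 140.1 and 46.5 CPM. ChC batches 1, 3 and 4 lay above every Pv batch, while ChC batch 2 lay below batches 5, 7 and 8 and above batch 6. Within animal 1 the level in batch 1 was 43.04 times that in batch 2 (7 UMI, counting interval 20.6 to 108), and in the batches labelled animal 3 that in batch 5 was 22.8 times that in batch 6 (2 UMI, counting interval 5.94 to 195). In animals 2 and 4 the ratio of the first to the other batch was 2.18 and 3.02.

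The mean level of Gabbr2 was 267 ± 225 CPM (SD, n = 4) in ChC and 74.2 ± 60.4 CPM (SD, n = 4) in Pv, so the spread within ChC was as large as the difference. Its log2 fold change (ChC/Pv) was 2.08 (standard error 0.83, unadjusted p = 0.0357), and it missed the threshold after adjustment (adjusted p = 0.739, edgeR's quasi-likelihood test, adjusted after Benjamini-Hochberg). The ChC mean was 352 ± 181 CPM (SD, n = 3) without batch 2, and the Pv mean was 97.4 ± 47.4 CPM (SD, n = 3) without batch 6. Without batch 6 the log2 fold change was 1.52. It was above 0 in all 14 alternative fits, from 1.52 to 2.30, and the adjusted p ranged from 0.343 to 1.00 over them.

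**Figure D1:**
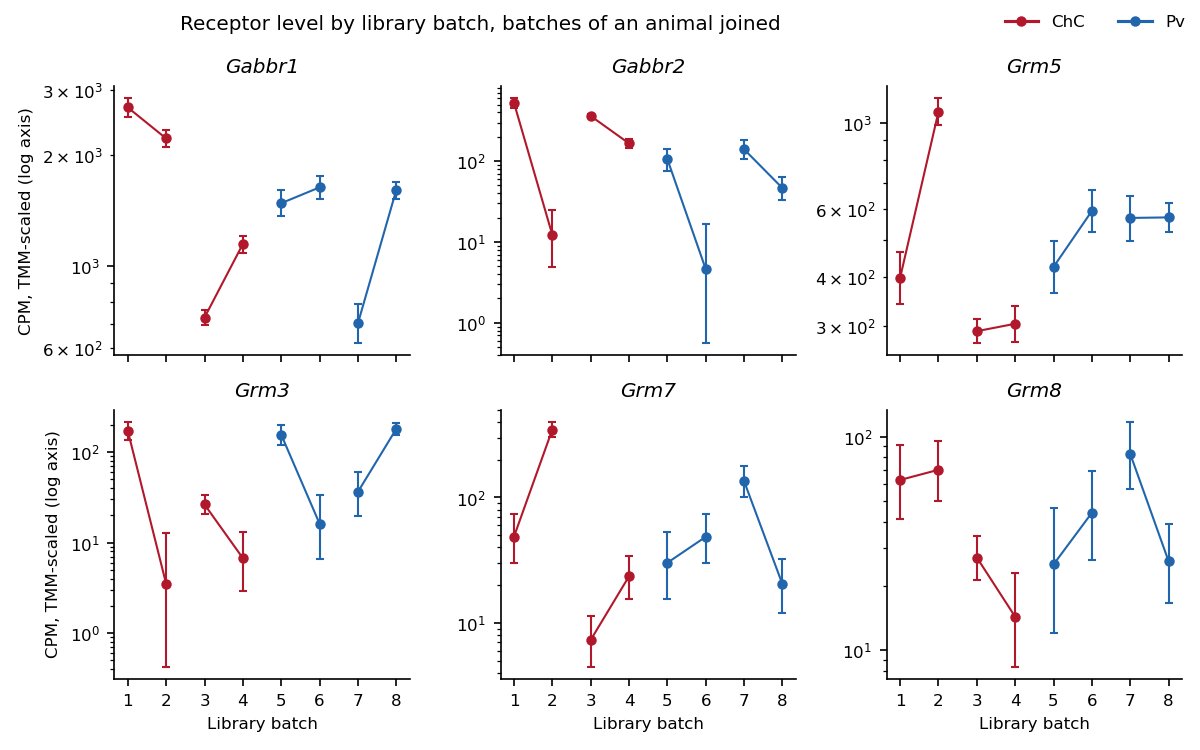
TMM-scaled CPM of 6 receptor genes in the 8 library batches on log axes, ChC in red and Pv in blue, with lines joining the batches of an animal and bars for the 95% counting interval. Gabbr2 ranged from 4.63 CPM (batch 6) to 527 CPM (batch 1), while Gabbr1 stayed between 701 and 2692 CPM.

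The subunits were also counted in single cells. Gabbr1 had a UMI in each of the 63 ChC and 63 Pv cells. To compare shares of cells at equal depth, each cell was thinned to 10000 UMI, which left out 14 ChC and 4 Pv cells and kept 108. Gabbr1 was found in 108 of these cells, and Gabbr2 in 61. By batch, Gabbr2 was found in 11 of 11, 0 of 10, 13 of 14 and 10 of 14 ChC cells, and in 9 of 15, 0 of 13, 13 of 15 and 5 of 16 Pv cells. The 0 of 10 cells of batch 2 allow up to 30% of cells with a UMI at this depth by the limit of 3 counts, and the 0 of 13 cells of batch 6 up to 23.1%. These limits do not bound the share of cells that express the gene.

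The mean share of cells with a Gabbr2 UMI was 66.1% ± 45.7 (SD, n = 4) over ChC batches and 44.5% ± 37.3 (SD, n = 4) over Pv batches. Without batch 2 the ChC mean was 88.1%, and without batch 6 the Pv mean was 59.3%. Without thinning, the counts were 15 of 16, 3 of 16, 16 of 16 and 15 of 15 ChC cells and 16 of 16, 2 of 15, 13 of 16 and 14 of 16 Pv cells. Most cells of batches 2 and 6 held no Gabbr2 UMI at their full depth. In batch 2 the cells held 7 Gabbr2 UMI beside 1269 Gabbr1 UMI, and in batch 6 they held 2 beside 707.

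**Figure D2:**
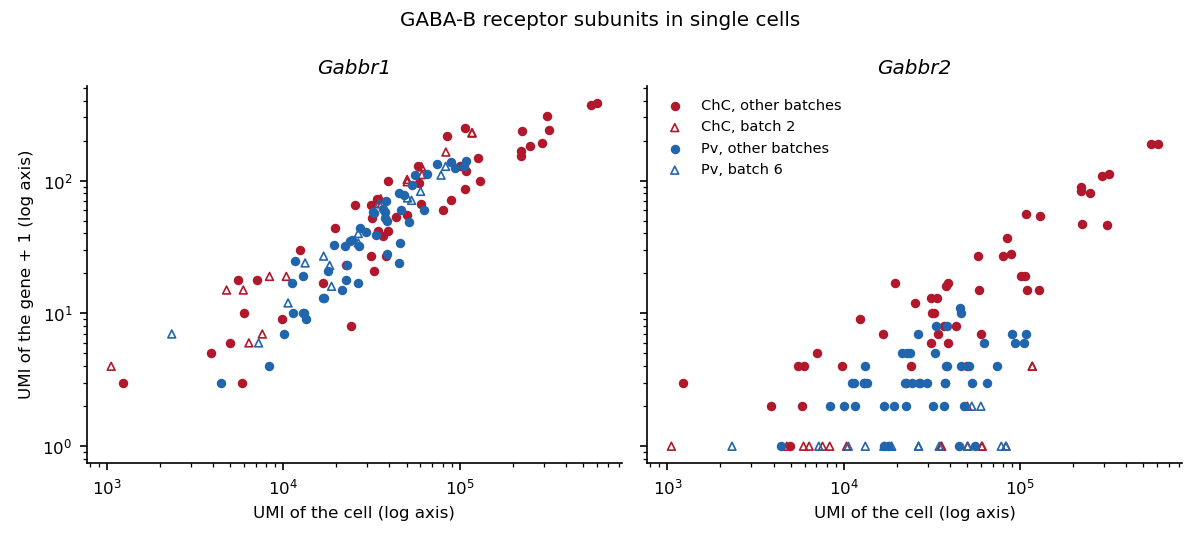
UMI of Gabbr1 (left) and Gabbr2 (right) plus 1 in each of 63 ChC and 63 Pv cells against the total UMI of the cell, both on log axes, with ChC in red, Pv in blue and open triangles for batches 2 and 6. Gabbr1 was above 0 in every cell, while 3 of 16 cells of batch 2 and 2 of 15 cells of batch 6 held a Gabbr2 UMI.

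Grm5, the group I receptor that raises intracellular calcium through phospholipase C, came next to Gabbr1 in mean CPM per kb of exon in both groups, in ChC only with batch 2 included. It was at 399, 1067, 291 and 304 CPM in ChC batches and at 425, 592, 568 and 570.2 CPM in Pv batches. The Pv batches lay close together, and the ChC batches lay below them except for batch 2, which was above all. The means were 515 ± 371 CPM (SD, n = 4) in ChC and 539 ± 76.7 CPM (SD, n = 4) in Pv. Without batch 2 the ChC mean was 331 ± 59.2 CPM (SD, n = 3). The log2 fold change (ChC/Pv) was -0.02 (standard error 0.64, adjusted p = 0.999, edgeR's quasi-likelihood test, adjusted after Benjamini-Hochberg) and changed sign in 3 of the 14 alternative fits, with a range from -0.84 to 0.50.

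Nearly every cell held Grm5. At 10000 UMI it was found in 47 of 49 ChC cells and 58 of 59 Pv cells, and without thinning in 61 of 63 and 63 of 63.

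Grm3, a group II receptor found on neurons and glia, jumped between the batches of each animal. ChC batches 1 to 4 held 172, 3.50, 26.4 and 6.73 CPM, and Pv batches 5 to 8 held 156, 16.2, 36.3 and 180.3 CPM. A single high batch in each of animals 1, 3 and 4 stood beside a low one, and the groups overlapped. The ratio of batch 1 to batch 2 was 49.1 (2 UMI in batch 2, counting interval 13.1 to 413), that of batch 5 to batch 6 was 9.63, and that of batch 8 to batch 7 was 4.96. In the fit the log2 fold change (ChC/Pv) was -1.20 (standard error 1.14, adjusted p = 0.986, edgeR's quasi-likelihood test, adjusted after Benjamini-Hochberg) and was below 0 in all 14 alternative fits, from -2.38 to -0.55.

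Group means of Grm3 were 52.1 ± 80.4 CPM (SD, n = 4) in ChC and 97.2 ± 82.9 CPM (SD, n = 4) in Pv. Without batch 1 the ChC mean was 12.2 ± 12.4 CPM (SD, n = 3), and without batch 6 the Pv mean was 124 ± 77.1 CPM (SD, n = 3). At 10000 UMI, Grm3 was found in 14 of 49 ChC cells and 30 of 59 Pv cells, of which 9 of 11 were in batch 1, 9 of 15 in batch 5 and 14 of 16 in batch 8. Without thinning it was found in 34 of 63 ChC cells and 45 of 63 Pv cells. The astrocyte list summed to 60.3, 493, 354, 1087, 116, 57.9, 1370.3 and 397 CPM in batches 1 to 8, with between 3 and 6 of its 7 genes detected in a batch and Gfap at 0 throughout. Batches 1 and 5, high in Grm3, were low in this list, while batch 8, the highest in Grm3, was at 397 CPM of the list. Batch 6 was the lowest in the list and low in Grm3, and batch 7, the highest in the list, was at 36.3 CPM of Grm3. The part of other cell types in the Grm3 level was not tested.

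Grm2, the other group II receptor, was seen in a single library. Batch 7 held 7 UMI in 6 of its 16 cells, 18.2 CPM (counting interval 7.30 to 37.4), and the other 7 batches held 0 UMI, which allows between 1.10 CPM (batch 3) and 7.55 CPM (batch 5). At 10000 UMI it was found in 4 of 15 cells of batch 7 (26.7%, exact binomial interval 7.79 to 55.1%). With so few UMI this share depends on the draw and on the cells kept, with 1 of 42 Pv cells at 20000 UMI and 0 of 55 where totals were read from the top transcript row of each gene. The pyramidal neuron list summed to 48.7, 516, 63.4, 911, 534, 1062, 1469 and 164 CPM in batches 1 to 8. Between 2 and 4 of its 8 genes were detected in a batch, and Neurod6, Tbr1, Emx1 and Slc17a6 were at 0. Batch 7, which held the Grm2 UMI, was the highest in this list. Slc17a7, a vesicular glutamate transporter of the list that was picked out after its values were seen, was at 0, 47.2, 0, 81.6, 7.55, 0, 285 and 23.8 CPM in batches 1 to 8. At 10000 UMI it was found in 15 of 15 cells of batch 7 and in at most 8 of 14 cells of another batch (batch 4). Gad1 of the GABAergic list and Slc1a2 of the astrocyte list were also found in 15 of 15 cells of batch 7. Each of these cells thus held Slc17a7 together with Gad1. The part of other cell types in the Grm2 count was not tested.

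The level of Grm7, a group III receptor of presynaptic active zones, was carried in ChC by a single library. ChC batches 1 to 4 held 48.7, 348, 7.33 and 23.6 CPM, and Pv batches 5 to 8 held 30.2, 48.6, 135 and 20.4 CPM. Batch 2 lay above all other batches and batch 3 below all, so that the ChC batches enclosed the Pv batches. The mean in ChC was 107 ± 162 CPM (SD, n = 4), or 26.5 ± 20.9 CPM (SD, n = 3) without batch 2, and the mean in Pv was 58.5 ± 52.3 CPM (SD, n = 4), or 33.1 ± 14.3 CPM (SD, n = 3) without batch 7. The log2 fold change (ChC/Pv) was 1.26 (standard error 1.38, adjusted p = 0.991, edgeR's quasi-likelihood test, adjusted after Benjamini-Hochberg) and turned to -1.91 without animal 1. At 10000 UMI, Grm7 was found in 10 of 10 cells of batch 2 and in 1 of 11, 0 of 14 and 2 of 14 cells of ChC batches 1, 3 and 4. These shares depend on the draw and on the cells kept. Where totals were read from the top transcript row of each gene, they ran from 14.3% to 88.9% over ChC batches. Without thinning, Grm7 was found in 10 of 16, 15 of 16, 10 of 16 and 10 of 15 cells of ChC batches 1 to 4.

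Grm8, a further presynaptic group III receptor, differed little between the groups. ChC batches 1 to 4 held 62.7, 69.9, 27.1 and 14.3 CPM, and Pv batches 5 to 8 held 25.2, 43.97, 83.0 and 26.1 CPM. Both batches of animal 1 and batch 7 were high, and the groups overlapped over most of their range. The means were 43.5 ± 26.999 CPM (SD, n = 4) and 44.6 ± 27.1 CPM (SD, n = 4). The log2 fold change (ChC/Pv) was 0.19 (standard error 1.25, adjusted p = 0.999, edgeR's quasi-likelihood test, adjusted after Benjamini-Hochberg), and its sign changed in 4 of the 14 alternative fits.

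In batch 6, cell Pv-19, singled out after its values were seen, held 12 of the 21 Grm7 UMI and 10 of the 19 Grm8 UMI with 3.74% of the UMI of the batch. Without this cell, batch 6 was at 21.6 CPM for Grm7 and at 21.6 CPM for Grm8. At 10000 UMI, Grm7 was found in 13 of 49 ChC and 15 of 59 Pv cells, and Grm8 in 17 of 49 and 23 of 59. Without thinning, where ChC cells were deeper (median 39200 UMI against 27116), Grm7 was found in 45 of 63 ChC and 37 of 63 Pv cells, and Grm8 in 46 of 63 and 38 of 63. Grm4, also a group III receptor, had 1 UMI in batch 3 (0.37 CPM, counting interval 0.00928 to 2.04) and 1 UMI in batch 5 (2.52 CPM, counting interval 0.0637 to 14.02). With 0 UMI in the other 6 batches, no difference in Grm4 was detectable at this depth.

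The make-up of the receptor UMI within a library does not depend on its scaling. Thinning cells to 10000 UMI did move mean shares. For Grm8, of the metabotropic glutamate receptor UMI, they went from 6.42% to 7.96% in ChC and from 5.84% to 7.56% in Pv. For Gabbr2, of the Gabbr1 and Gabbr2 UMI, they went from 15.7% to 14.7% in ChC and from 6.60% to 7.28% in Pv. Gabbr2 made up 16.4%, 0.549%, 33.3% and 12.6% of the Gabbr1 and Gabbr2 UMI in ChC batches 1 to 4, and 6.66%, 0.282%, 16.7% and 2.81% in Pv batches 5 to 8. The exact binomial interval was 0.221 to 1.13% in batch 2, 0.0342 to 1.02% in batch 6 and 31.6 to 35.0% in batch 3. The mean over ChC batches was 15.7% ± 13.5 (SD, n = 4) and that over Pv batches 6.60% ± 7.20 (SD, n = 4), a difference smaller than the spread within ChC. With each batch left out, the ChC mean ran from 9.84% (without batch 3) to 20.7% (without batch 2). The Pv mean ran from 3.25% (without batch 7) to 8.71% (without batch 6).

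Grm5 held the majority of the UMI of the 6 metabotropic glutamate receptors in all 8 batches. Its share was 58.5%, 71.7%, 82.6% and 87.2% in ChC batches and 66.5%, 84.5%, 67.6% and 71.6% in Pv batches. The groups overlapped, with means of 74.997% ± 12.8 (SD, n = 4) and 72.5% ± 8.25 (SD, n = 4). The receptor with the most UMI after Grm5 differed by library. Grm3 took that place in batches 1 (25.2%), 5 (24.4%) and 8 (22.6%), Grm7 in batches 2 (23.4%), 4 (6.76%), 6 (6.93%) and 7 (16.0%), and Grm8 in batch 3 (7.71%). Batch 3 was nearly tied, with 74 Grm8 and 72 Grm3 UMI, as was batch 6, with 21 Grm7 and 19 Grm8 UMI, or 9 of each without cell Pv-19.

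**Figure D3:**
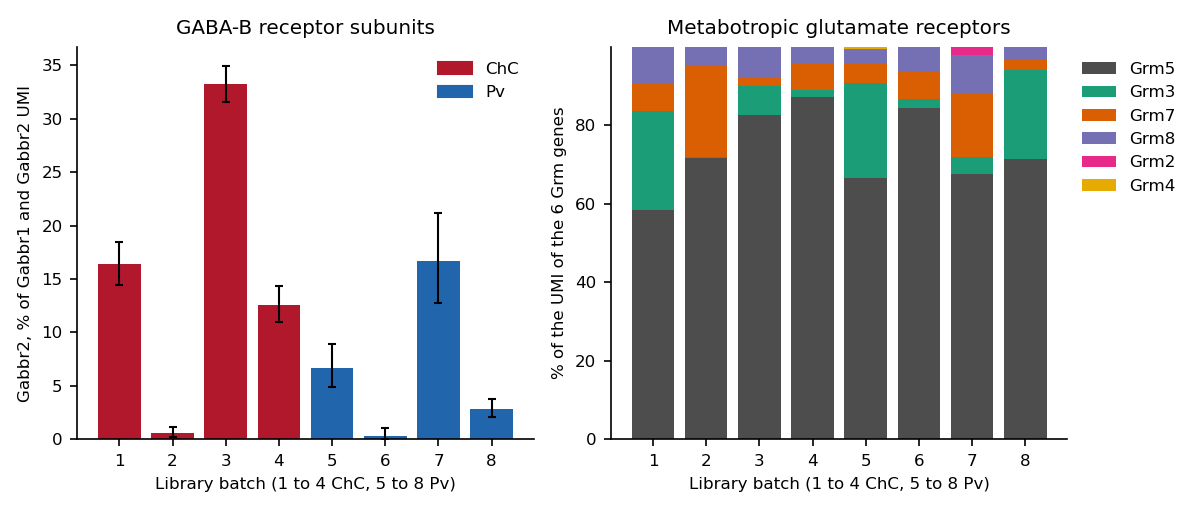
Left, Gabbr2 as percent of the Gabbr1 and Gabbr2 UMI of each library batch with exact 95% binomial intervals, ChC in red and Pv in blue. Right, percent of the UMI of the 6 metabotropic glutamate receptors held by each gene, where Grm5 held between 58.5% (batch 1) and 87.2% (batch 4).

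Levels of different genes were set side by side as CPM per kb of exon. A molecule is counted once whatever its length, and in CPM without division by length the means of the 6 receptors below had the same order in each group. On this scale the mean level in ChC was 218 ± 117 for Gabbr1, 63.8 ± 45.9 for Grm5, 45.6 ± 38.4 for Gabbr2, 18.2 ± 27.5 for Grm7, 14.6 ± 22.5 for Grm3 and 5.54 ± 3.44 for Grm8 (SD, n = 4). Gabbr1 was above Grm5 in 4 of 4 ChC batches. From Grm5 down to Grm8 the neighbours in this order overlapped over the batches, with Grm5 above Gabbr2 in 2 of 4 and Grm7 above Grm3 in 2 of 4. Without batch 2 the order turned, with Gabbr2 (60.1 per kb) above Grm5 (41.03 per kb) and Grm3 (19.1 per kb) above Grm7 (4.51 per kb), and without batch 1 Grm8 (4.73 per kb) was above Grm3 (3.41 per kb). In Pv the mean level per kb was 174 ± 56.8 for Gabbr1, 66.8 ± 9.50 for Grm5, 27.2 ± 23.2 for Grm3, 12.7 ± 10.3 for Gabbr2, 9.95 ± 8.88 for Grm7 and 5.68 ± 3.45 for Grm8 (SD, n = 4). The Pv batches of Gabbr1 all lay above those of Grm5, and those of Grm5 above those of Grm3, while the lower neighbours overlapped, and without batch 5 Grm7 (11.6 per kb) was above Gabbr2 (10.9 per kb).

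Together the 8 receptors gave a similar part of the UMI in both batches of animals 1, 2 and 3. This part was 0.319% and 0.323% in animal 1, 0.136% and 0.151% in animal 2, 0.194% and 0.202% in animal 3, and 0.175% and 0.235% in animal 4. The batches of animal 4 lay further apart and enclosed those of animal 3. Gabbr1 and Grm5 held most of these UMI, and single receptors differed more. The mean size of the log2 difference between the batches of an animal was 3.14 for Grm3, 3.06 for Gabbr2, 1.93 for Grm7, 0.86 for Grm8, 0.57 for Gabbr1 and 0.49 for Grm5. The median of this measure over the 6481 genes was 1.65, so that Grm3, Gabbr2 and Grm7 lay above it and Gabbr1, Grm5 and Grm8 below.

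Spread between the cells of a batch was also measured. The chi-square of a gene's UMI, given the cell totals, was divided by its degrees of freedom where the batch held 100 or more UMI of the gene. A value of 1 is counting error alone. For Grm5 it lay between 0.734 (batch 7) and 1.82 (batch 1), for Gabbr1 between 0.894 (batch 7) and 2.35 (batch 8), and for Gabbr2 at 1.59, 0.808 and 0.867 in batches 1, 3 and 4. Grm7 was at 1.75 in batch 2 and Grm3 at 1.40 in batch 8, where the medians over genes were 1.22 and 1.21. The median over all such genes of a batch was between 1.09 and 1.58. Gabbr2 held too few UMI for this measure in the other 5 batches, among them batches 2 and 6.

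Over the 8 batches, the levels of some receptors varied together. Pearson's r of log2(CPM + 1) was 0.839 between Grm5 and Grm7, 0.763 between Grm7 and Grm8, -0.745 between Grm5 and Gabbr2, and -0.299 between Gabbr1 and Gabbr2 (n = 8 batches each, which share animals in pairs). The genes most like each receptor over the same 8 batches, among 6481, were Cyb5r4 (r = 0.959) and Nxpe3 (r = 0.937) for Grm3, and Gm16701 (r = 0.938) and Flywch1 (r = 0.892) for Grm5. For Grm7 they were 1700007B14Rik (r = 0.981) and Pgcp (r = 0.966), and for Grm8 Sycp1 (r = 0.925) and Gpr98 (r = 0.924). Gabbr1 was most like Plaa (r = 0.966) and Cstf2t (r = 0.938), and Gabbr2 most like Rbm5 (r = 0.970) and Ccz1 (r = 0.958), each over 8 batches. With so many genes and 8 points, high values are found for any gene, and these are descriptions.

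Genes that work with these receptors were examined as a list of 52, of which 42 could be tested over animals. With edgeR's quasi-likelihood test 0 were called, 4 had an unadjusted p under the threshold (6.27% of all genes did), and DESeq2 called 0 of them beside 151 of all 9829 genes. The log2 fold change (ChC/Pv) was above 0 for 18 and below 0 for 24, with a median of -0.12 beside 0.04 over all genes tested. Of the 34 that pass the filter over batches, 2 had all ChC batches above all Pv batches and 1 had all below, beside 2.89% and 1.77% of all genes.

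Among the scaffolds, Grip1, a PDZ protein that binds receptor tails, was at 1692, 2037, 1652 and 929 CPM in ChC batches and at 594, 905, 633 and 729 CPM in Pv batches. Every ChC batch lay above every Pv batch, and the log2 fold change (ChC/Pv) was 1.19 (standard error 0.47, adjusted p = 0.739, edgeR's quasi-likelihood test, adjusted after Benjamini-Hochberg). Plcb4, a phospholipase C downstream of group I receptors, was at 81.2, 296, 38.1 and 85.0 CPM in ChC batches and at 10.1, 32.4, 2.60 and 19.3 CPM in Pv batches. It was likewise higher in every ChC batch, with batch 2 far above the other 3. Adcy9, an adenylyl cyclase, was at 9.28, 10.5, 17.6 and 22.7 CPM in ChC batches and at 179, 39.3, 90.8 and 24.9 CPM in Pv batches, lower in every ChC batch. The adjusted p was 0.795 for Plcb4 and 0.883 for Adcy9 (edgeR's quasi-likelihood test, adjusted after Benjamini-Hochberg).

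The other roles overlapped between the groups. Among the auxiliary GABA-B subunits, Kctd16 had the highest mean CPM over all 8 batches and in ChC, but not in Pv. It was at 429, 38.5, 156 and 646 CPM in ChC batches and 32.7, 16.2, 182 and 10.2 CPM in Pv batches. Like Gabbr2 it was lowest in batch 2 among the ChC batches. Unlike Gabbr2, which was highest of ChC in batch 1 and lowest of Pv in batch 6, it was highest in batch 4 and lowest in batch 8. The log2 fold change (ChC/Pv) of Kctd16 was 2.58 (standard error 0.94, adjusted p = 0.704, edgeR's quasi-likelihood test, adjusted after Benjamini-Hochberg). Kcnj6, a subunit of the potassium channels that GABA-B receptors open, was at 128, 85.7, 276 and 411 CPM in ChC batches and at 73.0, 41.7, 145 and 6.80 CPM in Pv batches, where batch 7 lay within the ChC range.

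Of 11 G protein subunits, 2 had a log2 fold change (ChC/Pv) above 0 and 9 below, none of them called by the edgeR fit. Gnaq, which couples group I receptors to phospholipase C, was at 578 ± 229 CPM (SD, n = 4) in ChC and 803 ± 242 CPM (SD, n = 4) in Pv. Plcb1, a phospholipase C, was at 443 ± 181 and 894 ± 564 CPM (SD, n = 4 each, ChC first). The adenylyl cyclase Adcy8 was at 1225, 327, 246 and 90.0 CPM in ChC batches and at 50.3, 213, 132 and 19.3 CPM in Pv batches, with batch 1 far above the rest. Rgs7, which speeds the shut-off of Gi/o proteins, was at 309, 145, 289 and 169.96 CPM in ChC batches and at 30.2, 50.9, 462 and 195 CPM in Pv batches, with batch 7 the highest. Arrb1, an arrestin that ends receptor signalling, was at 199.9 ± 174 and 87.4 ± 53.1 CPM (SD, n = 4 each, ChC first).

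In mm9, the build of the counts, the GABA-B subunits lie at chr17:37182911-37211250 (Gabbr1, plus strand) and chr4:46676770-47004586 (Gabbr2, minus strand). Grm3 lies at chr5:9485236-9725352 (minus), Grm5 at chr7:94732678-95283573 (plus), Grm7 at chr6:110595592-111517224 (plus) and Grm8 at chr6:27225121-28084369 (minus). Grm2 lies at chr9:106546866-106558440 (minus) and Grm4 at chr17:27559333-27640249 (minus). In gencode vM1, a pseudogene on the same strand and an antisense transcript overlap Grm7. An antisense U7 small RNA overlaps Grm5, and SNORA17 and Mir592 overlap Grm8. The use of strand in the counting was not given in the sources used here, so reads of overlapping genes cannot be told apart. The other 5 receptors overlap no annotated gene.

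Gabbr1 and Gabbr2 encode subunits of the same receptor, and Gabbr2 and Grm3 had the largest differences between the batches of an animal, so the stretches upstream of these 3 genes are shown. Batches of an animal share these sequences, and nothing on those differences is drawn from them. RefSeq promoter sequences (GRCm38.p6) were found for 6 of the 8 receptors, with none for Grm4 and Grm5. Each of the 3 matched mm9 once without a mismatch over the 250 bases before the start. They run from chr17:37182661-37182910 (plus strand, Gabbr1) and chr5:9725353-9725602 (minus strand, Grm3), both outside annotated exons. For Gabbr2 the 91 bases chr4:47004746-47004836 (minus strand) are shown, which leaves out 159 bases that lie in an annotated first exon. Each reads 5′ to 3′ in the direction of the gene. Capitals mark the GC box GGGCGG or its reverse CCGCCC.
Gabbr1: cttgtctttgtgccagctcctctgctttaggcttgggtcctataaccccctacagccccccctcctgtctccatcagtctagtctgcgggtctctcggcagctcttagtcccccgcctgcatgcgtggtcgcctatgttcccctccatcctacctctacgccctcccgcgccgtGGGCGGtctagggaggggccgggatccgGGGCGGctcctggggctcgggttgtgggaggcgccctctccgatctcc
Gabbr2: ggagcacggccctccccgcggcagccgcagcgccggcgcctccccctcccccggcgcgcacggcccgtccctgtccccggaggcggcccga
Grm3: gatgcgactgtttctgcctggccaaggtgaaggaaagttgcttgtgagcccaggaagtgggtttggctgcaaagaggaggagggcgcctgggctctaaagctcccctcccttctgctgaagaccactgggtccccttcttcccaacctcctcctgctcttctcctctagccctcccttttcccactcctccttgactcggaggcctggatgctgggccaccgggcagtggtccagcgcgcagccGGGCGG

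Over 250 bases the GC box was found on either strand 2 times in Gabbr1 and 1 time in Grm3, and 32.7% of the 32851 promoters in the table hold it in that window. In the 91 bases of Gabbr2 it was found 0 times, beside 9.42% of promoters in a window of that length. Other motifs were searched on both strands and found 0 times in all 3 stretches. CCAAT is held by 33.8% of promoters over 250 bases and 12.3% over 91 bases, TATAAA by 12.4% and 4.80%, and TGACGTCA by 1.55% and 0.131%. The G and C content was 66.0% in Gabbr1, 85.7% in Gabbr2 and 62.4% in Grm3. A match or its absence describes these letters only.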

How the data were processed

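The authors aligned reads to mm9 with Bowtie 0.12.7 (submitters' processing notes), counted each tag on a gene once, and deposited raw UMI counts for 27207 transcripts and 128 cells. Here rows sharing a gene name were summed and 2 cells without counts were left out. UMI were summed per animal and tested with edgeR 4.0.16 (quasi-likelihood test, TMM, filterByExpr, Benjamini-Hochberg threshold 0.05) in R 4.3.3. Alternatives used DESeq2 1.42.0 and limma 3.58.1. Thinning drew 10000 UMI per cell without replacement (seed 75). The rest ran in Python 3.11.15 (pandas 2.3.3, matplotlib 3.10.9, scipy 1.17.1, numpy 2.4.6).

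The genes named are the 8 receptors, called related genes, the related genes whose batches do not overlap (at most 4 per direction) and that with the highest CPM per role. Label checks, the top gene of each marker list and the 2 genes most correlated with each receptor complete the rule. Receptors and lists were chosen with earlier results of these data known.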

Additional observations from a re-analysis of the deposited data

Results flagged for a closer look

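Among groups of 4 batches, a value far from the other 3 of its group was looked for in the CPM of each receptor, in its percent of the receptor UMI, and in the percent of cells with a UMI at 10000 UMI. It was found in 15 of 39 groups. Chance marks about 1 in 20 groups where values vary freely, but in 9 of the 15 the other 3 values were equal (0 UMI or 100% of cells), so the mark follows from the ties and that rate does not apply to them. No Gabbr2 value was marked, in batches 2 and 6 or elsewhere. The rule sets the gap to the nearest value against the range of the 4, on unlogged values. With the other 3 Gabbr2 CPM of a group so spread out, it could not mark even a level of 0. The 3 measures of a gene and the groups of a library are not independent.

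Batches 2 and 7 gave several of these values. In ChC, batch 2 stood above the other 3 for Grm5 (1067 CPM) and Grm7 (348 CPM, and 100% of cells). In Pv, batch 7 stood above the others for Grm2 (18.2 CPM, 2.16% of the metabotropic glutamate receptor UMI and 26.7% of cells) and below them for Gabbr1 (701 CPM).

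Batch 1 was above the other ChC batches for Grm3 (172 CPM). Batch 5 was below the other Pv batches for Grm5 (425 CPM, and 93.3% of cells), and batch 3 below the other ChC batches for the percent of cells with Grm5 (85.7%). For Grm4, which had 0 UMI elsewhere in each group, the single UMI of batch 3 gave 0.37 CPM and 0.104% of the metabotropic glutamate receptor UMI, and that of batch 5 gave 2.52 CPM and 0.394%.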

How the results depend on the processing

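Each result was set against its first value under each alternative. In 346 comparisons it was the same (a fold change kept its sign and side of the threshold, a share lay within 1 SD, a count within 1.5 times), in 17 it moved and in 9 the sign reversed. These counts do not measure stability, since shares that are 0 throughout are included and the SD of a share is often as large as its mean. ChC cells with Grm7 went from 30.8% to 7.79% without batch 2, and Pv cells with Grm2 from 6.67% to 0% without batch 7, both within 1 SD. No paired analysis was possible because the groups share no replicate number. Lane numbers recur, but on different flow cells. Where an animal was left out, the lone animal of its group was assumed to vary like the other group. Leaving out Pv batch 6 or cell Pv-19 was chosen after the data were seen.

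No receptor was called in any of the 14 alternative fits. Genes called, 0 in the first fit, were 151 with DESeq2, 80 without a filter on low counts, 5 with batches as samples, and 7 to 100 with each animal left out. The log2 fold change of Gabbr1 ranged from -0.72 to 0.71 with each animal left out, that of Grm5 from -0.84 to 0.50, that of Grm7 from -1.91 to 2.18 and that of Grm8 from -0.71 to 0.75. Without animal 4 that of Grm5 was 0.01, and without Pv batch 6 it was 0.08. That of Grm8 was -0.040 with batches as samples, -0.35 with cells thinned to 10000 UMI and -0.11 with cells at equal weight. Receptors whose batches do not overlap numbered 0 to 2 with each batch left out. The cause was not tested.

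Some shares of cells differed with depth. At 5000 UMI, Grm5 was found in 74.8% of ChC and 92.2% of Pv cells and Grm8 in 17.6% and 11.8%, and without thinning Grm8 in 73.0% of ChC and Grm7 in 58.6% of Pv cells. Grm4 was found in 1.56% of ChC and 1.56% of Pv cells without thinning and in 2.08% of Pv cells at 20000 UMI. At 10000 UMI a batch held between 10 and 16 cells, and levels under 7.79 CPM were below the limit of 3 counts in at least 1 batch.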

Other observations

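Cell Pv-19 of batch 6, singled out after its values were seen, held 18750 UMI, among them 12 UMI of Grm7, 10 of Grm8 and 3 of Grm3, and 0 of Gabbr2. UMI of the 192 genes that span at least 500 kb made up 13.1% of its total. In the other cells of batch 6 this share was between 6.26% and 7.16%. The median share per cell was 10.3%, 10.3%, 9.71% and 7.60% in ChC batches 1 to 4. In Pv batches 5 to 8 it was 6.47%, 6.59%, 8.84% and 5.46%. Of the Pv batches, only batch 7 lay above a ChC batch (batch 4). Grm5, Grm7 and Grm8 span 551, 922 and 859 kb and belong to these genes, while Gabbr1 spans 28.3 kb. Cells ChC-25 (13.6%, batch 2) and ChC-10 (13.01%, batch 1) had similar shares in batches with higher medians. The cause was not tested.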
